A study of Mus musculus with 4 samples.

Results

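The SLC25 genes, which encode the carrier proteins of the inner mitochondrial membrane, were read in whole hearts of Klf9 knockout and wild-type mice. The mice were labelled as male and 8 weeks old. All genes of the deposited table whose symbol starts with Slc25a were taken, and Ucp2, an uncoupling protein of the same family, was added, which gave 46 of 17485 genes. Klf9 is a DNA-binding regulator of transcription, one of the Krüppel-like factors, and the study asked how its loss bears on the mitochondria of the heart. There were 2 libraries of total RNA from Klf9 knockout hearts and 2 from wild-type hearts; the labels named no strain, no construct of the knockout allele and no batch.

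Carriers of the SLC25 family move nucleotides, phosphate, amino acids, carboxylic acids, acylcarnitines, cofactors and iron across the inner membrane, which is otherwise closed to them. In heart muscle, the exchange of ADP for ATP and the import of phosphate supply the ATP synthase. The aspartate-glutamate and oxoglutarate carriers bring the reducing power of cytosolic NADH into the matrix through the malate-aspartate shuttle, and the carnitine-acylcarnitine carrier brings in fatty acids.

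The table gave log2 ratios for the 4 pairs of a knockout and a wild-type library, and the value of each gene in each library was rebuilt from them. No unit is stated for these values, and sequencing depth is unknown. Levels were therefore compared between libraries, and so were sums over genes and ratios between carriers. A factor lost from a gene's values in the rebuilding would change the size of such sums and ratios. The cut-offs of 1 and 50 were applied across genes all the same. Klf9 itself stood at 2.66 and 1.99 in the knockout libraries, against 74.9 and 58.8 in the wild-type libraries. The library labelled Klf9 knockout replicate 2 went against its label of male sex: 4 Y-linked genes (Kdm5d, Ddx3y, Eif2s3y and Uty) summed to 1.33 in it and to 42.4 in knockout replicate 1, against 46.2 and 70.2 in the wild-type libraries. Results are therefore also given without that library for the carriers past the threshold. For carriers near the threshold (Slc25a4, Slc25a34, Slc25a38 and Slc25a46), the log2 fold changes without that library are given. Esr1, a gene chosen after its values were seen, stood at 0.09 and 0.03 in knockout libraries, against 3326 and 2726 in wild-type libraries. This difference in a gene other than Klf9 goes with genotype in these libraries, and its source was not tested. The labels do not tie the libraries to separate animals, though the 2 knockout libraries differed in their Y-linked sums. The p-values therefore reflect library-to-library spread within a group. Part of that spread, and in wild type all of it, may be technical.

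The heart label was checked against 8 cardiomyocyte genes (Myh6, Tnnt2, Tnni3, Actc1, Ryr2, Pln, Myl2 and Nppa), which were present in all 4 libraries and summed to 32361 and 30547 in the knockout libraries, against 27782 and 32511 in the wild-type libraries; Tnni3 and Nppa were lower in the knockout and the other 6 did not pass the test. Of 7 genes that follow the stage of the heart, 5 were higher in the knockout, namely the early troponin Tnni1 (656 and 994 against 0.16 and 0.01), Myh7, Igf2, Mki67 and Top2a, while Tnni3 was lower and Myh6 did not pass. Of 4 macrophage genes 3 were lower (sums of 27.3 and 28.1 in the knockout, against 79.0 and 98.7 in wild type), of 4 fibroblast genes 2 were higher and 1 lower (514 and 579 against 300.0 and 471), of 4 endothelial genes 1 was higher (370.1 and 379 against 295 and 271), and of 3 smooth muscle and pericyte genes 2 were higher and 1 lower (361 and 445 against 234 and 296). Of 3 red cell genes 0 passed limma and 1, Hba-a1, had an unadjusted p below 0.05 (sums of 11979 and 8002 against 7269 and 7596). Of the fat genes, Plin1 and Ucp1 were at 0.04 or below in every library, and Cidea did not pass. Myl2, the largest term of the cardiomyocyte sums, and Myh6 were higher in both knockout libraries than in both wild-type libraries. In 5 of the 8 cardiomyocyte genes both knockout libraries lay below both wild-type libraries, beside 30.2% of all tested genes. Some of the markers thus differed between the groups and others did not. All libraries carried the same age label, yet the stage genes that rose differed widely between the groups. Igf2 stood at 311 and 399 in the knockout, against 8.87 and 4.65 in wild type. Top2a stood at 20.71 and 26.59, against 1.28 and 1.56. Stage and genotype thus went together in these libraries, and whether the age label holds was not tested. The part of stage and of the other markers in the results on carriers was not tested either. In such bulk samples, fewer cells of a type and less RNA per cell cannot be told apart.

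With all 4 libraries, carriers changed in both directions in knockout hearts, with the 3 carriers of the malate-aspartate shuttle lower and the 3 tested carriers of ATP-Mg for phosphate higher. Most of these calls did not hold when a knockout library was left out, as given below. Of the 39 carriers that reached a value of 1 in 2 or more libraries, 7 were higher and 9 lower in the knockout, and 23 did not pass (limma on log2 of value + 1, adjusted p below 0.05 over all 12135 tested genes). In either direction 16 of the 39 carriers passed, a share near the 44.7% of all tested genes. Among all tested genes 27.7% passed as higher and 17% as lower, so that the carriers' shares of 17.9% and 23.1% stood on either side of these. The higher ones were Ucp2, Slc25a25, Slc25a1, Slc25a10, Slc25a24, Slc25a23 and Slc25a27. The lower ones were Slc25a35, Slc25a29, Slc25a26, Slc25a33, Slc25a11, Slc25a13, Slc25a12, Slc25a32 and Slc25a30. The shuttle and ATP-Mg carriers are parts of wider substrate groups. Of 7 tested carriers of adenine nucleotides 3 were higher and 0 lower, and of 7 of amino acids 0 were higher and 3 lower. Of 7 of di- and tricarboxylates or uncoupling type, 4 were higher and 2 lower. The shares of all tested genes were 27.7% higher and 17% lower. The median log2 fold change of the 39 carriers was -0.26, against 0.12 for all tested genes, a difference of -0.38.

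The balance of higher and lower carriers depended on the scaling of the libraries. RLE scaling (by the median ratio of each library to the others) moved the median of all tested genes by more than 0.1, to -0.02, and the split of all calls to 2610 higher and 2633 lower genes, against 3367 and 2061 without it. After it 5 carriers were higher and 15 lower, beside 21.5% and 21.7% of all tested genes. After upper quartile scaling 6 carriers were higher and 15 lower, beside 22.2% and 21.4%. The median of the carriers relative to all genes was -0.38 under each of these. Without knockout replicate 2, 2 carriers were higher (Slc25a25 and Ucp2) and 4 lower (Slc25a26, Slc25a29, Slc25a33 and Slc25a35), beside 11.1% higher and 8.98% lower over all tested genes in that fit. Without knockout replicate 1, 4 were higher and 5 lower, beside 13.8% and 10.2% of all tested genes. Without wild-type replicate 1, 8 were higher and 17 lower, beside 36.8% and 25.3%, and without wild-type replicate 2, 7 and 10, beside 34.2% and 17.6%. The counts of carriers thus moved with those of the whole table. The median relative to all tested genes ranged from -0.45 to -0.32 over the 4 fits that each left out a library.

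**Figure D1:**
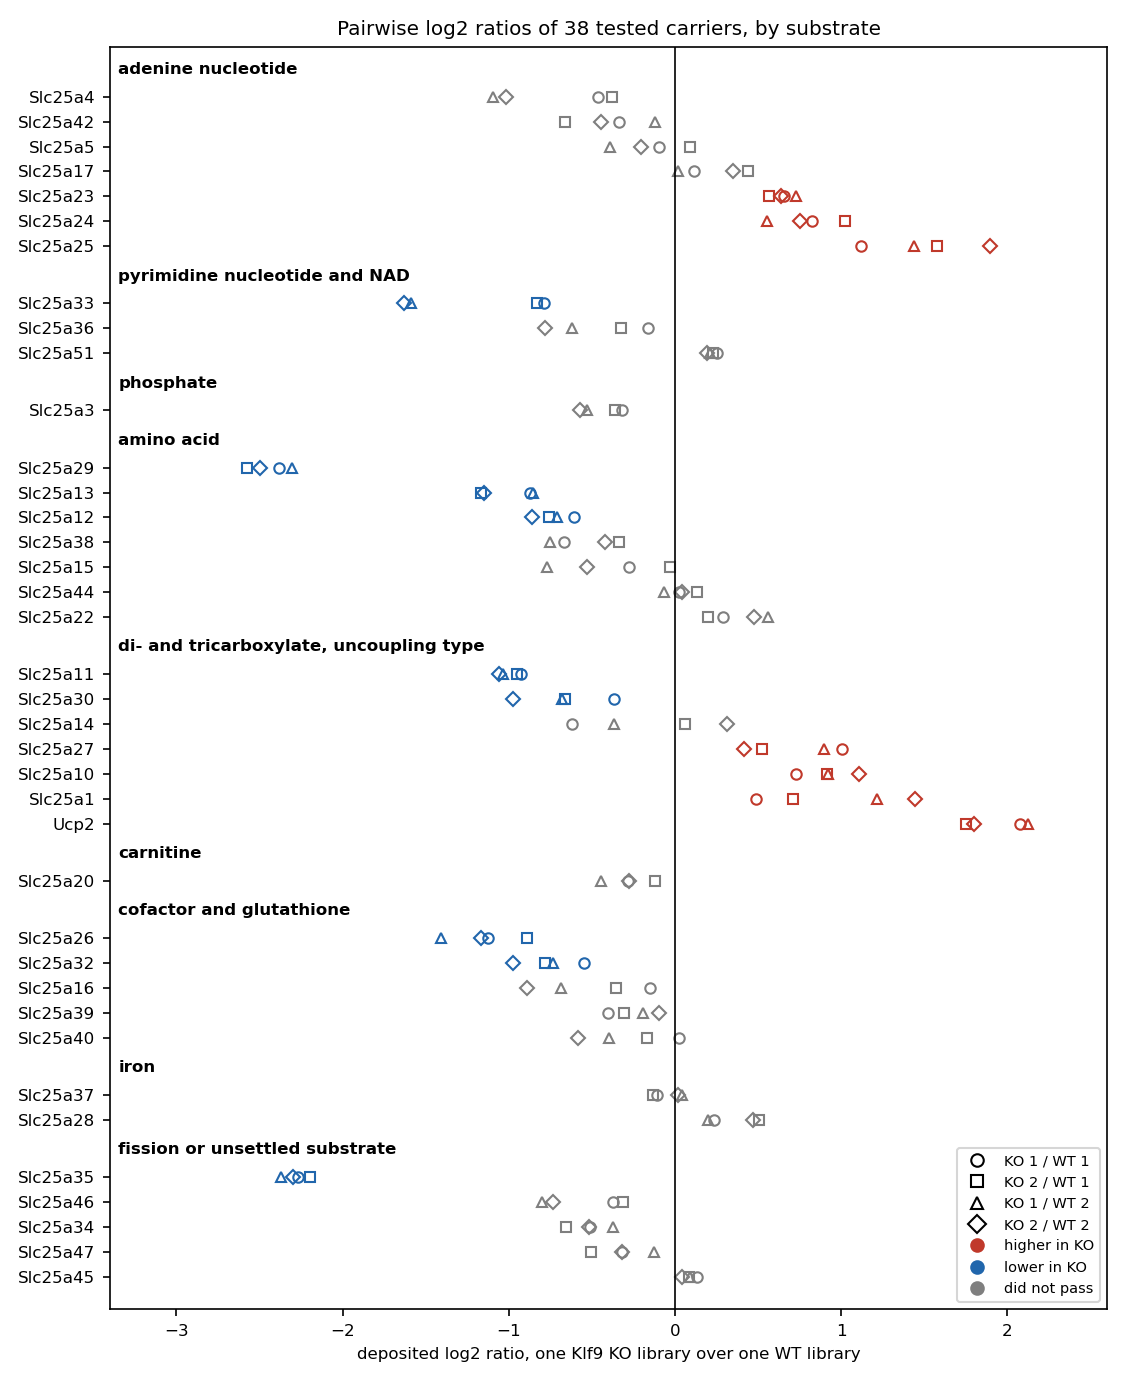
Deposited log2 ratio (x axis) of 38 of the 39 tested carriers (y axis, by substrate group) for the 4 pairs of a Klf9 KO and a WT library, one symbol per pair, in red for carriers higher in KO, blue for lower and grey for those that did not pass. Slc25a23, Slc25a24 and Slc25a25 lie to the right of 0 in every pair, and Slc25a11, Slc25a12 and Slc25a13 to the left of 0 in every pair.

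In 34 of the 39 tested carriers the knockout and wild-type libraries did not overlap, with the knockout above in 12 and below in 22. Over all tested genes 75.4% did not overlap (45.2% with the knockout above and 30.2% with it below), and the share among the carriers was 87.2%. The 5 carriers whose libraries overlapped were Slc25a5, Slc25a14, Slc25a37, Slc25a40 and Slc25a44.

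**Figure D2:**
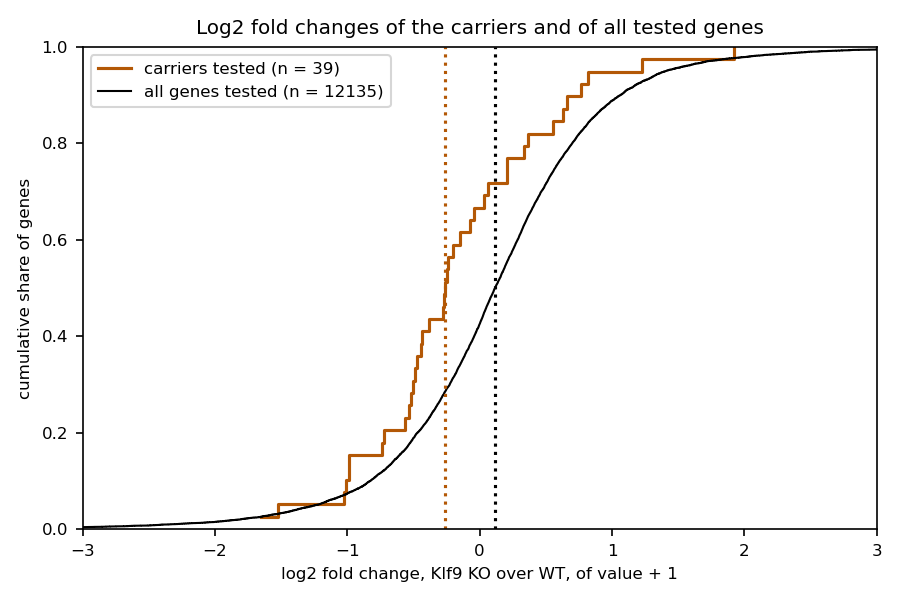
Cumulative share of genes (y axis) by log2 fold change of value + 1, Klf9 KO over WT (x axis, drawn from -3 to 3), for the 39 tested carriers and for all 12135 tested genes, with dotted lines at the medians of -0.26 and 0.12. The curve of the carriers lies to the left of that of all genes around the medians and meets it towards both ends.

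The 3 carriers of the malate-aspartate shuttle fell in knockout hearts. Slc25a11, which exchanges 2-oxoglutarate for malate, stood at 184 and 181 in knockout libraries, against 349 and 377 in wild-type libraries (a log2 fold change of -0.99 ± 0.21, SE with n = 2 in each group; limma adjusted p = 0.00481). Slc25a12, the aspartate-glutamate carrier of heart and brain known as aralar, stood at 59.7 and 53.8 in the knockout, against 91.2 and 97.7 in wild type (-0.72 ± 0.19; limma adjusted p = 0.0134). Slc25a13, its paralog citrin, stood at 29.4 and 23.98 in the knockout, against 53.9 and 53.2 in wild type (-0.98 ± 0.19; limma adjusted p = 0.00311). In each of the 3 both knockout libraries lay below both wild-type libraries. Without knockout replicate 2 none of the 3 passed (limma adjusted p = 0.120, 0.264 and 0.103), and without knockout replicate 1 Slc25a13 did, while Slc25a11 and Slc25a12 did not (0.0976 and 0.133); their directions were the same in both fits. Of the 4 enzymes that complete the shuttle, the cytosolic transaminase Got1 fell, to 143 and 132 in knockout libraries, against 547 and 588 in wild-type libraries (-2.04 ± 0.21; limma adjusted p = 0.000127). Got2, Mdh1 and Mdh2 did not pass, with log2 fold changes of 0.05 (-0.10 after RLE scaling), -0.63 and -0.18; Mdh1 passed after RLE scaling (limma adjusted p = 0.0281) and without wild-type replicate 1 (0.000247), and had a log2 fold change of -0.36 without replicate 2.

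The upstream sequences of carriers that moved together are shown here for the elements that Krüppel-like factors are known to bind. Starts were taken from the RefSeq promoter table (build GRCm38.p6), matched by Entrez number, and the windows of 35 of the 46 genes were searched; those not searched included Slc25a2, Slc25a26, Slc25a27, Slc25a32, Slc25a35, Slc25a37, Slc25a41, Slc25a44, Slc25a46 and Slc25a51. The build behind the deposited table is not stated. For each gene the 250 bases before its first listed start were searched on both strands for the GC box (GGGCGG) and the CACCC box (CACCC), and for AAGGTCA, the element bound by estrogen-related receptors; matches that share bases with one another were each counted. The windows of the 3 shuttle carriers are chr11:70647040-70647289 (minus strand) for Slc25a11, chr2:71367756-71368005 (minus strand) for Slc25a12 and chr6:6217174-6217423 (minus strand) for Slc25a13, printed 5′ to 3′ along the gene with matches on either strand in capitals.
Slc25a11: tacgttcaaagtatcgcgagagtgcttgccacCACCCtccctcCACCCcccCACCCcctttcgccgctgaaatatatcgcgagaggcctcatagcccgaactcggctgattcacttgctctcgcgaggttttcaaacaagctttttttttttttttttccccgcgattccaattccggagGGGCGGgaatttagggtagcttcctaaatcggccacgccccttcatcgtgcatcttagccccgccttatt
Slc25a12: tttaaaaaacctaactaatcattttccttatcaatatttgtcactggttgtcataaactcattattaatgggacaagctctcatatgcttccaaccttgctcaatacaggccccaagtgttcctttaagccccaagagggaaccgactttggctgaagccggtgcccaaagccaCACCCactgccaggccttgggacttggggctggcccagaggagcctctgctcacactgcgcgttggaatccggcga
Slc25a13: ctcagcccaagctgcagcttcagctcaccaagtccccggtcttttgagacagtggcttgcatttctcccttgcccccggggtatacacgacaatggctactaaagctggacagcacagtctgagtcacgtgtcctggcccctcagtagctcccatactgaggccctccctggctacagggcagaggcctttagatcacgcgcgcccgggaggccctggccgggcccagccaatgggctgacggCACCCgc
The GC box was found in the window of Slc25a11 and in neither of the others, and the CACCC box in all 3. Over the 35 matched carriers the GC box was found in 68.6% and the CACCC box in 62.9% of windows, against 59.9% and 57.3% over 9672 tested genes and 32.9% and 51.3% over the 27025 genes of the promoter table that were searched. Of the 6 matched carriers that rose, 5 held a GC box and 3 a CACCC box, and of the 6 matched carriers that fell, 4 held each. AAGGTCA was found in 1 of the 35 windows, that of Slc25a34 (2.86%, against 2.65% over tested genes and 4.05% over the promoter windows searched). A match describes the letters of the window and not a bound site.

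All 3 tested carriers of ATP-Mg for phosphate rose. These carriers, whose cytosolic part binds calcium, adjust the total pool of adenine nucleotides in the matrix. Slc25a25 stood at 6.39 and 8.78 in knockout libraries, against 2.94 and 2.36 in wild-type libraries (a log2 fold change of 1.22 ± 0.20, SE; limma adjusted p = 0.0013). Slc25a24 stood at 6.40 and 7.35 in the knockout, against 3.62 and 4.36 in wild type (0.66 ± 0.18; limma adjusted p = 0.015). Slc25a23 stood at 51.4 and 48.3 in the knockout, against 32.6 and 30.99 in wild type (0.63 ± 0.18; limma adjusted p = 0.0187). Both knockout libraries lay above both wild-type libraries in each. Slc25a25 passed without either knockout library in turn, while Slc25a23 (limma adjusted p = 0.264 without knockout replicate 1 and 0.206 without replicate 2) and Slc25a24 (0.0754 and 0.212) did not; Slc25a23 also missed the threshold after RLE scaling (0.48, limma adjusted p = 0.0526). Slc25a41, the paralog without the calcium-binding part, was at 0.05 or below in all 4 libraries and was not tested. The window of Slc25a24, chr3:109122899-109123148 (plus strand), held 2 GC boxes and 3 CACCC boxes, the most of the 3; those of Slc25a23 and Slc25a25 held 1 GC box and 0 CACCC boxes each and are not printed.
Slc25a24: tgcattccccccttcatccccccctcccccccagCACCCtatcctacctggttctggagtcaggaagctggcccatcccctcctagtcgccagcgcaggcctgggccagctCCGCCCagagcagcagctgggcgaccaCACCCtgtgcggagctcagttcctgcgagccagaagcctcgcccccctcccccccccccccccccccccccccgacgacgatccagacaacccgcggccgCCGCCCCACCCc

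The ADP/ATP carriers did not pass. Slc25a4, the isoform of heart and skeletal muscle (ANT1), stood at 1807 and 1912 in knockout libraries, against 2489 and 3864 in wild-type libraries (a log2 fold change of -0.74 ± 0.28, SE; limma adjusted p = 0.0588). Both knockout libraries were below both wild-type libraries, but the wild-type libraries differed from each other by 0.63 on the log2 scale. Slc25a4 passed after RLE scaling (-0.89; limma adjusted p = 0.0233) and upper quartile scaling (-0.88; limma adjusted p = 0.0249). Its log2 fold change became -0.70 with knockout replicate 1 left out and -0.78 with knockout replicate 2 left out. Leaving out wild-type replicate 1 gave -1.06, and leaving out wild-type replicate 2 gave -0.42. Of these fits, Slc25a4 passed only in the one that left out wild-type replicate 1. Slc25a5, the more widely expressed isoform (ANT2), stood at 259 and 295 in the knockout, against 278 and 340.03 in wild type, and its libraries overlapped (-0.15 ± 0.22; limma adjusted p = 0.613). The testis isoform Slc25a31 was at 0.32 or below throughout. The ratio of Slc25a4 to Slc25a5 within a library was 6.97 and 6.47 in the knockout, against 8.97 and 11.4 in wild type. This was 1 of 5 such ratios between carriers. The others were Slc25a12 to Slc25a13, Slc25a37 to Slc25a28 and Slc25a23 to Slc25a4, which did not overlap between the groups either, and Slc25a39 to Slc25a40, which did. With 2 libraries a group the exact two-sided permutation test cannot go below 0.333 (Benjamini-Hochberg adjusted p = 0.417 over the 5 ratios for those that did not overlap). The isoforms are close paralogs and how reads shared between them were assigned is not stated. Slc25a17, the peroxisomal carrier of adenine nucleotides and coenzyme A (log2 fold change 0.21), and Slc25a42, the mitochondrial carrier of coenzyme A (-0.38), did not pass, although Slc25a42 did without wild-type replicate 2 (limma adjusted p = 0.0176).

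The phosphate and carnitine carriers, both single genes, did not pass. Slc25a3, the phosphate carrier whose transcript is spliced to a muscle form, stood at 1072 and 1043 in knockout libraries, against 1339 and 1548 in wild-type libraries (a log2 fold change of -0.44 ± 0.23, SE; limma adjusted p = 0.150), and passed only without wild-type replicate 1 (-0.55; limma adjusted p = 0.0108). Slc25a20, the carnitine-acylcarnitine carrier, stood at 82.9 and 93.1 in the knockout, against 101 and 113 in wild type (-0.28 ± 0.20; limma adjusted p = 0.280). In both genes each knockout library lay below each wild-type library. Among the partners of Slc25a20, Cpt1a, the liver-type enzyme that forms acylcarnitines at the outer membrane, rose to 45.5 and 46.02 in the knockout, against 19.2 and 16.8 in wild type (1.30 ± 0.18; limma adjusted p = 0.000582). Cpt2, which turns acylcarnitines back into acyl-CoA in the matrix, fell (-0.55 ± 0.20; limma adjusted p = 0.0483; 0.274 without knockout replicate 1, 0.493 without replicate 2 and 0.0647 with no filter). The muscle form Cpt1b (log2 fold change 0.17) and the carnitine acetyltransferase Crat (0.17) did not pass.

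**Figure D3:**
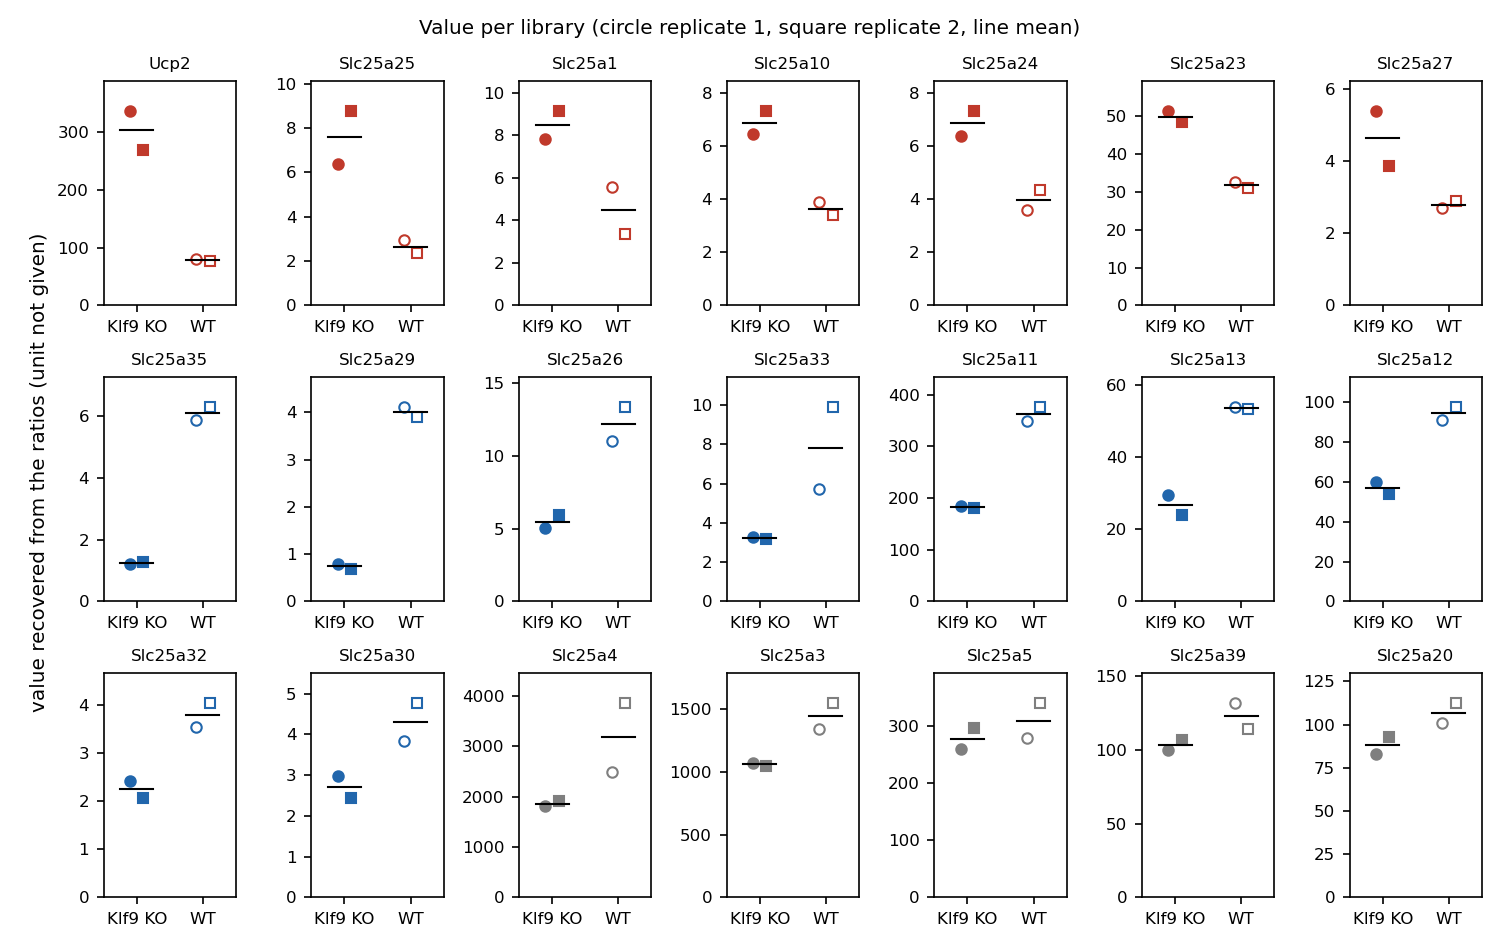
Value in each library (y axis from 0, unit not given), Klf9 KO (filled) left of WT (open), with a circle for replicate 1, a square for replicate 2 and a line at the mean, for the 16 carriers past the threshold and the 5 others with a mean of at least 50. Red marks higher in KO, blue lower and grey not past the threshold; Ucp2 is at 337 and 269.9 in KO and at 80.0 and 77.5 in WT, and Slc25a4 shows the widest gap between WT libraries among the grey panels.

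Ucp2 rose most of the carriers tested. It carries four-carbon acids and is known for proton leak, and it is abundant in immune cells. Its values were 337 and 269.9 in knockout libraries, against 80.0 and 77.5 in wild-type libraries, a 3.86-fold ratio of means (log2 fold change 1.92 ± 0.21, SE; limma adjusted p = 0.000189). It passed in all 12 alternatives. The macrophage genes, measured beside it, were lower in the knockout in 3 of 4 cases, and markers of other immune cells were not read. Which cells the Ucp2 transcripts came from was not tested. Ucp3, the muscle uncoupling protein, did not pass (32.5 and 28.8 in the knockout, against 27.2 and 22.96 in wild type; log2 fold change 0.28) except without wild-type replicate 1 (limma adjusted p = 0.0251; log2 fold change 0.16 without replicate 2), and Ucp1 was at 0.04 or below in every library. The window of Ucp2, chr7:100493108-100493357 (plus strand), held 1 GC box and 1 CACCC box.
Ucp2: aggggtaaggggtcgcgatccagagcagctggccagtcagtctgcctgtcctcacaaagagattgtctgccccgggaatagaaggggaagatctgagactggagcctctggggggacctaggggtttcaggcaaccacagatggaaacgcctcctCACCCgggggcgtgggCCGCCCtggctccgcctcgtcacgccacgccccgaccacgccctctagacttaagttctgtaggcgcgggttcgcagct

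Other carriers of carboxylic acids went both ways. Slc25a1, the citrate carrier that feeds cytosolic acetyl-CoA, rose to 7.83 and 9.16 in the knockout, against 5.59 and 3.37 in wild type (log2 fold change 0.82 ± 0.22, SE; limma adjusted p = 0.0155). Slc25a10, the dicarboxylate carrier, stood at 6.44 and 7.33 in the knockout, against 3.88 and 3.40 in wild type (0.76 ± 0.17; limma adjusted p = 0.00687). Neither passed without knockout replicate 2 (limma adjusted p = 0.102 and 0.122), and Slc25a1 did not with no filter (0.0569). The log2 fold change of Slc25a1 was 1.12 without wild-type replicate 1 and 0.52 without replicate 2, and passed in both fits. Slc25a27, also called UCP4, stood at 5.40 and 3.87 in the knockout, against 2.69 and 2.90 in wild type (0.56 ± 0.19; limma adjusted p = 0.0405). Slc25a30 was the lower one, at 2.98 and 2.43 in the knockout, against 3.85 and 4.78 in wild type (-0.52 ± 0.18; limma adjusted p = 0.0449). These calls were the least stable, with 6 of the 12 alternatives past the threshold for Slc25a27 and 7 for Slc25a30. Without knockout replicates 1 and 2 in turn the limma adjusted p was 0.450 and 0.078 for Slc25a27 and 0.146 and 0.403 for Slc25a30, which also missed the threshold without wild-type replicate 2 (0.0702); Slc25a27 missed it after RLE scaling (0.095). Slc25a14 overlapped between the groups at a level near 1, and Slc25a21, the oxoadipate carrier, was at 0.10 or below. Pyruvate enters through a carrier of another family, and its subunits fell: Mpc1 stood at 192 and 172 in knockout libraries, against 468 and 743 in wild-type libraries (-1.69 ± 0.26; limma adjusted p = 0.00109), and Mpc2 at 92.6 and 94.7, against 168 and 256 (-1.14 ± 0.24; limma adjusted p = 0.00548).

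Among the amino acid carriers, Slc25a29 fell beside the aspartate-glutamate carriers. It carries basic amino acids, and stood at 0.79 and 0.69 in knockout libraries, against 4.12 and 3.90 in wild-type libraries (a log2 fold change of -1.53 ± 0.16, SE, on the scale of value + 1; limma adjusted p = 0.000143). The ratio of means was 0.185, and without a pseudocount the log2 fold change was -2.44. Slc25a29 entered the test only through its wild-type libraries, since both knockout values were below 1, and was not tested without either wild-type library. The window of Slc25a29, chr12:108835877-108836126 (minus strand), held 2 GC boxes and 3 CACCC boxes.
Slc25a29: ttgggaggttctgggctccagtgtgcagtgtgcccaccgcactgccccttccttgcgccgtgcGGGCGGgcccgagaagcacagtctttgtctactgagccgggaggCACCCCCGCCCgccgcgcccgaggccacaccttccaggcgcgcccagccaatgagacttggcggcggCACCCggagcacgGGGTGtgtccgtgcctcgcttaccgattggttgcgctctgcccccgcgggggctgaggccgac
The glutamate carrier Slc25a22 (log2 fold change 0.37), the ornithine carrier Slc25a15 (-0.26), the glycine carrier Slc25a38 (-0.49; limma adjusted p = 0.0521) and Slc25a44, a carrier of branched-chain amino acids (0.03), did not pass. Slc25a38 passed after RLE scaling (-0.62, limma adjusted p = 0.0201), after upper quartile scaling (0.0209) and with a minimum of 5 (0.0473). Its log2 fold change was -0.34 and -0.63 without knockout replicates 1 and 2 in turn, and -0.52 and -0.45 without wild-type replicates 1 and 2. Slc25a22 stood at 0.50 without wild-type replicate 1 and at 0.24 without replicate 2, and Slc25a15 at -0.43 and -0.096. The sign of Slc25a44 turned after RLE scaling (-0.11). Slc25a18, the other glutamate carrier, and Slc25a2 were at 0.31 or below.

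A pair of cofactor carriers and a nucleotide carrier fell. Slc25a26 brings S-adenosylmethionine, the methyl donor, into the matrix; it stood at 5.04 and 5.95 in the knockout, against 11.01 and 13.4 in wild type (log2 fold change -1.02 ± 0.18, SE; limma adjusted p = 0.00212). Slc25a32, which carries folate and FAD, stood at 2.43 and 2.06 in the knockout, against 3.55 and 4.05 in wild type (-0.57 ± 0.17; limma adjusted p = 0.0261; 0.127 without knockout replicate 1 and 0.305 without replicate 2). Slc25a33, a carrier of pyrimidine nucleotides, stood at 3.30 and 3.20 in the knockout, against 5.70 and 9.91 in wild type (-1.01 ± 0.23; limma adjusted p = 0.00799). The groups did not overlap in any of the 3, and Slc25a33 differed by 0.80 on the log2 scale between its wild-type libraries; its log2 fold change was -1.36 without wild-type replicate 1 and -0.66 without replicate 2, and passed in both fits. Its paralog Slc25a36 (-0.43) and the NAD carrier Slc25a51 (0.21) did not pass. Slc25a16 (-0.47) and the glutathione carriers did not pass either; of these last, Slc25a39 stood at 99.7 and 107 in the knockout, against 132 and 114 in wild type (-0.25), and Slc25a40 had a log2 fold change of -0.24. After RLE scaling Slc25a36 and Slc25a16 passed (limma adjusted p = 0.0405 and 0.0387), and without wild-type replicate 1 they did so together with Slc25a40 (0.00176, 0.000877 and 0.0375). Without wild-type replicate 2 the log2 fold changes of Slc25a36, Slc25a16 and Slc25a40 were -0.22, -0.23 and -0.059 and did not pass.

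Iron carriers did not pass. The mitoferrins import iron for heme and iron-sulfur clusters. Slc25a28, the form of most tissues, stood at 18.9 and 22.7 in the knockout, against 16.03 and 16.4 in wild type (log2 fold change 0.33 ± 0.18, SE; limma adjusted p = 0.164). Slc25a37, the form of red cell precursors, stood at 8.51 and 8.36 in the knockout, against 9.16 and 8.25 in wild type, and its libraries overlapped (-0.04 ± 0.17; limma adjusted p = 0.870).

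Slc25a35, a carrier whose substrate is not settled, had the largest decrease among the carriers tested on the scale of value + 1, while by the ratio of means and without a pseudocount Slc25a29 fell further. Slc25a35 stood at 1.22 and 1.28 in knockout libraries, against 5.87 and 6.30 in wild-type libraries (a log2 fold change of -1.65 ± 0.17, SE, on the scale of value + 1; limma adjusted p = 0.000112), a ratio of means of 0.205. It passed in all 12 alternatives, as did Slc25a25, Slc25a26, Slc25a33 and Ucp2. With the minimum of 5, however, Slc25a35 and Slc25a33 entered only through their wild-type libraries, and Slc25a25 only through its knockout libraries. In the GENCODE annotation 820 exonic bases of Slc25a35 are shared with Rangrf on the other strand, and Rangrf fell as well, to 16.8 and 21.3 in the knockout, against 49.1 and 59.6 in wild type (-1.47 ± 0.20; limma adjusted p = 0.000586); whether the counting used strand is not stated, and without it reads of these genes cannot be told apart. In all, 11 carriers (with Slc25a21, which was not tested) share exonic bases with a gene on the other strand. Of these 7 were past the threshold: Slc25a10, Slc25a23, Slc25a25, Slc25a26, Slc25a33, Slc25a35 and Ucp2. Beside this, 16 of the 39 tested carriers and 44.7% of all tested genes passed. How many of all genes share exons in this way was not counted, and a link to the calls was not tested. The partners of Slc25a10, Slc25a23 and Slc25a33 are antisense genes whose values were not looked up. The partner of Ucp2, Dnajb13, was at 0.26 or below, that of Slc25a25, Naif1, at 1.05 or below, and that of Slc25a26, Lrig1, overlapped between the groups (10.45 and 8.95 in the knockout, against 9.75 and 9.33 in wild type). Slc25a34, the close paralog of Slc25a35, lay just outside the threshold (38.2 and 34.6 in the knockout, against 54.5 and 49.5 in wild type; -0.50 ± 0.18, limma adjusted p = 0.0501; 0.0193 after RLE scaling). It also passed with a minimum of 5 (limma adjusted p = 0.0474) and with non-robust moderation (0.049). Slc25a46, an outer membrane protein linked to mitochondrial fission and lipid supply, had a log2 fold change of -0.54 (limma adjusted p = 0.0549). Slc25a46 passed after RLE scaling (-0.68, limma adjusted p = 0.0205) and with a minimum of 5 (0.0499). Without wild-type replicate 1 and replicate 2 it was at -0.74 and -0.33. Without knockout replicates 1 and 2 in turn Slc25a34 was at -0.57 and -0.43, and Slc25a46 at -0.51 and -0.57. Slc25a45 (0.07, and -0.05 after RLE scaling) and Slc25a47 (-0.20) did not pass. Slc25a43 stood at 0.88 and 0.61 in the knockout, against 0.20 and 0.09 in wild type, and Slc25a53 at 0.35 and 0.24, against 0.09 and 0.18; both lay below the filter and were not tested, and with no filter Slc25a43 passed.

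**Figure D4:**
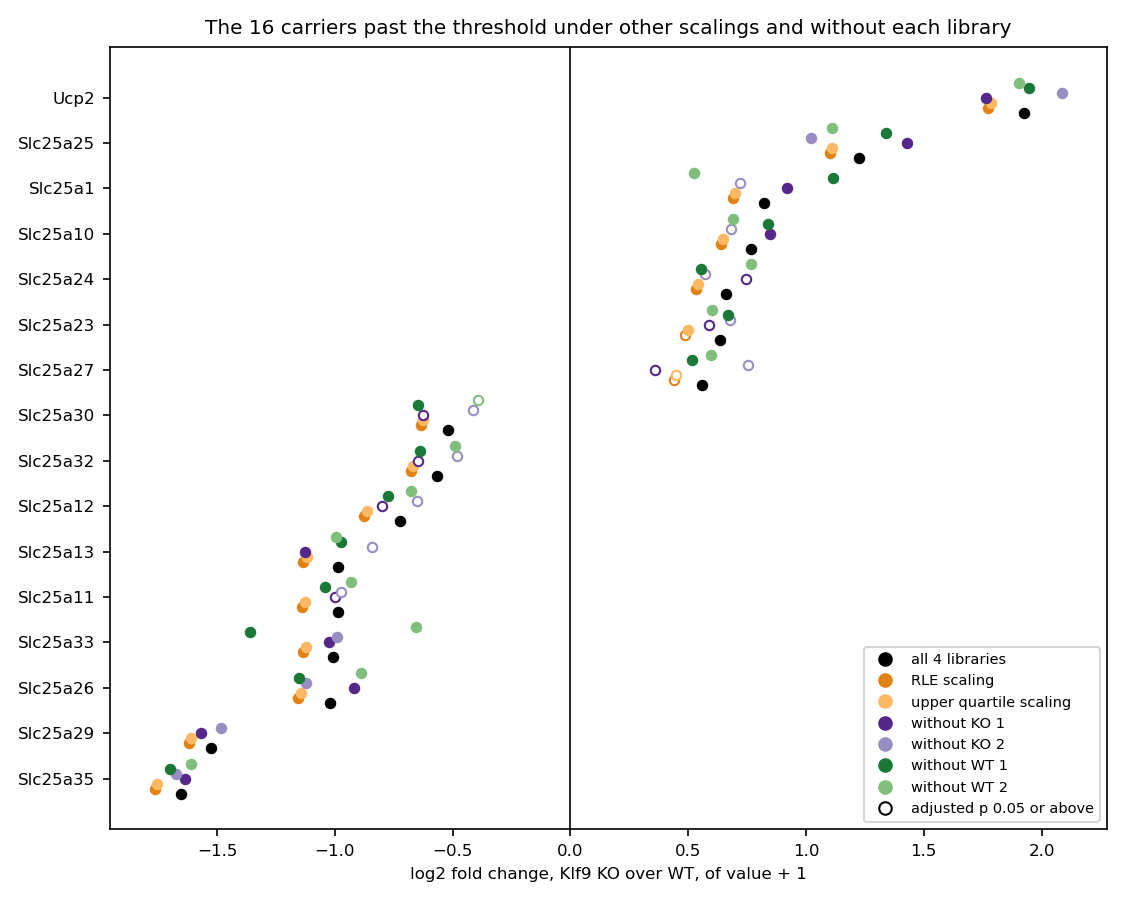
Log2 fold change of value + 1, Klf9 KO over WT (x axis), of the 16 carriers past the threshold (y axis) with all 4 libraries, after RLE and upper quartile scaling, and without each library in turn; filled points passed an adjusted p of 0.05 and open points did not. Every point of a carrier lies on the same side of 0, and open points are most frequent without a KO library.

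Of 24 other genes of mitochondrial transport (companions of the carriers), 22 were tested, 2 were higher and 5 lower. Beside Cpt1a, the higher one was Mtch1, an outer membrane relative of the carriers (124 and 138 in the knockout, against 74.1 and 65.0 in wild type; log2 fold change 0.91 ± 0.20, SE, limma adjusted p = 0.00598). Without knockout replicate 2 and without replicate 1, Mtch1 no longer passed (limma adjusted p = 0.134 and 0.0585). The lower ones were Got1, Mpc1, Mpc2, Cpt2 and Ckmt2, the mitochondrial creatine kinase of striated muscle, which takes up ATP exported by the ADP/ATP carrier. Ckmt2 stood at 442 and 304 in the knockout, against 1369 and 2234 in wild type (-2.25 ± 0.30; limma adjusted p = 0.000536). The outer membrane channels did not pass, with Vdac1 at 327 and 324 in the knockout, against 401 and 459.6 in wild type (-0.40 ± 0.21; limma adjusted p = 0.162); without wild-type replicate 1, Vdac1 and Vdac3 passed (0.0139 and 0.000555), and without replicate 2 they did not (0.134 and 0.400). By the same fit to all 4 libraries, 0 of the 5 sideroflexins passed limma, and 1, Sfxn3, had an unadjusted p below 0.05 (0.0466) and passed without wild-type replicate 1 (adjusted p = 0.00154) but not without replicate 2 (0.235). Mtch2 also did not pass (-0.53), but did after RLE scaling (limma adjusted p = 0.0375) and without wild-type replicate 1 (0.000225; 0.200 without replicate 2). The shares of 9.09% higher and 22.7% lower among the companions stood beside 27.7% and 17% of all tested genes.

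The wild-type libraries differed from each other in carriers. Replicate 2 was above replicate 1 in 25 of the 39 tested carriers, by a median of 0.10 on the log2 scale, against 0.03 for all tested genes; between the knockout libraries the median was -0.02, against 0.04. In the authors' deposited table, DEGseq gave a q below 0.001 for 32 of the 46 carriers, beside 57.6% of all 16254 genes with a value. Of these 32, 16 passed limma and all were in the same direction, 15 were tested and did not pass, and 1 was not tested. For Slc25a5, whose libraries overlapped, the log2 ratio in the authors' deposited table was -0.13, with a q of 4.48e-10.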

How the data were processed

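RNA sequencing libraries, 2 of Klf9 knockout hearts and 2 of wild-type hearts, were grouped by their titles. The authors deposited 1 table of 17485 genes with log2 ratios for the 4 library pairs, and, per the file headers, a log2 ratio of the groups with a p-value and q-value from DEGseq. The sources used here do not give the aligner, counting, unit, build or depth. Per-library values were rebuilt as the smallest whole numbers that give the 4 ratios (step of 0.01, an assumption; 0 cannot be told from 0.01). All 17485 genes were resolved, of which 16152 had all 4 ratios. The other 1333 had a missing ratio, and the libraries of a missing ratio were set to the smallest step, also an assumption. Slc25a41 was such a gene. A factor shared by a gene's 4 values is lost, which makes its level too low and leaves its ratios as deposited until the pseudocount of 1 is added.

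The test was limma 3.58.1 in R 4.3.3 (trend, robust, group only) on log2(value + 1), Benjamini-Hochberg adjusted over 12135 genes that reached a value of 1 in 2 or more libraries; it was tested on simulated data. Python 3.11.15, numpy 2.4.6, pandas 2.3.3 and matplotlib 3.10.9 were used. Because 1 is added, fold changes of low genes are understated. Members, substrate groups and lists were chosen with earlier results of these data known. Named with library values were carriers past the threshold or with a mean of at least 50; 1 carrier is counted with the others but not reported here by itself; a few others near the threshold or with low values were named after their values were seen. The alternatives tried were scaling by RLE or by the upper quartile, no filter, a minimum of 5, a pseudocount of 0.1 or none, non-robust moderation, the replicate number as a block, and leaving out each library. Genes sharing exons were looked up in GENCODE vM21, by name.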

Additional observations from a re-analysis of the deposited data

How the results depend on the processing

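All 16 carriers past the threshold kept their direction under the 12 alternatives wherever they were tested, and 5 of them (Slc25a25, Slc25a26, Slc25a33, Slc25a35 and Ucp2) passed in each. Slc25a25, Slc25a33 and Slc25a35 entered the fit with the minimum of 5 only through the group where they were high. Lower carriers numbered 15 after RLE and 15 after upper quartile scaling, against 9 without scaling. Beside these, 21.7%, 21.4% and 17% of all tested genes were lower. The median of the carriers relative to all tested genes was -0.22 with no filter, against -0.38. With each library left out in turn, higher genes overall numbered 1274 to 4340 and lower genes 1033 to 2982, higher carriers 2 to 8 and lower carriers 4 to 17, higher companions 1 to 4 and lower companions 4 to 9, and the carriers' median ranged from -0.45 to -0.32; in these fits the lone library of a group is assumed to vary like the others. Among carriers that did not pass, the sign turned for Slc25a44 (-0.11 after RLE and -0.094 after upper quartile scaling, and -0.018 to 0.080 with a library left out), Slc25a45 (-0.051 and -0.040 under these scalings), Slc25a14 (-0.24 to 0.10 with a library left out) and Slc25a37 (-0.11 to 0.029 with a library left out), and for the companion Got2 (-0.10 and -0.089 under these scalings). With the replicate number as a block, 7 carriers were higher and 11 lower (Slc25a4 and Slc25a46 were added, with limma adjusted p = 0.0116 and 0.0428), and 3514 and 2275 of all genes; same-numbered libraries did not deviate together from their group means (correlation -0.0355 over genes), and with 2 pairs the numbers are only shared names, not a pairing. The causes of these shifts were not tested. Depth is unknown, so that low values carry an error that cannot be given.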
